A study of Mus musculus with 9 samples.

Results

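Breast tumours with high RNA of Cul4a were compared with breast tumours in which Cul4a was low, gene by gene, on and off chromosome 8. Of 9 tumours, 4 had at least 300 CPM of Cul4a and 5 had less, where CPM are the reads counted for a gene, divided by the total of its library and multiplied by 1000000. The sides were therefore chosen by a measured value, and every level of Cul4a or of a gene beside it is given as a description, with no test between the sides. The Cul4a-high tumours were 1 AAV-Control tumour (AAV-Control 3) and 3 AAV-delta-mut-p53 tumours (AAV-delta-mut-p53 1, 4 and 5). The Cul4a-low tumours were 2 AAV-Control tumours (AAV-Control 1 and 2) and 3 AAV-delta-mut-p53 tumours (AAV-delta-mut-p53 2, 3 and 6).

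All 9 tumours are labelled with the same alleles: Rosa26LSL CAS9-P2A-EGFP/+, Trp53wm-R172H/fl and K14-Cre. K14-Cre makes Cre recombinase under the keratin 14 promoter, which is active in basal epithelial cells, and the other alleles give Cre-dependent mutant p53, a floxed Trp53 allele and a Cre-dependent Cas9 joined to EGFP. The adenocarcinomas arose spontaneously, received adeno-associated virus (AAV) on days 0, 3 and 8, and were taken when the animal met the criteria for euthanasia. The labels name 1 AAV as a control and the other for deletion of mutant p53, and give neither its guide sequences, nor the strain, age or share of cells edited. The labels do not say that the 9 tumours came from 9 animals, and the titles of AAV-delta-mut-p53 4 and 5 differ only in a final T1 or T2, which reads as a pair of tumours of 1 animal. P-values therefore measure only the spread between these samples.

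Totals ran from 18581545 to 30953250 counts per tumour. Trp53 RNA, the RNA of the targeted gene, was 38.1 to 51.3 CPM in the 3 AAV-Control tumours and 13.8 to 43.4 CPM in the 6 AAV-delta-mut-p53 tumours, which overlap, and a gene total does not report small edits. Keratin and luminal RNAs were present in all 9 tumours: Epcam, an epithelial adhesion molecule, was 471 to 1056 CPM in the high tumours and 31.8 to 773.6 CPM in the low ones. AAV-delta-mut-p53 2, a low tumour, held 44626 CPM in 17 skeletal muscle genes against 55.2 to 400.2 CPM in the other 8, and 37050 CPM in 12 fibroblast genes against 1627 to 8610 CPM. In bulk tissue, fewer cells of a type and less RNA per cell cannot be told apart.

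Cul4a encodes a cullin, the scaffold of the CRL4 ubiquitin ligases. In these complexes the adaptor Ddb1 and one of many substrate receptors bind at one end and the RING protein Rbx1 at the other, and the cullin is switched on when Nedd8 is attached to it. CRL4 ligases are known for removing replication and cell cycle proteins in S phase and for recognising ultraviolet damage in DNA. Mouse Cul4a lies near the centromere of chromosome 8, in a stretch that includes the lysosomal membrane gene Lamp1 and the E2F partner gene Tfdp1.

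Cul4a (ENSMUSG00000031446.14) is annotated at chr8:13105621-13147940 on the forward strand of GRCm38, and Pcid2, a nuclear mRNA export factor, starts 161 bases away on the reverse strand. The RefSeq window around the Cul4a start (GRCm38.p6, forward strand, chr8:13105373-13105672, 250 bases before the start and 50 after it) is shown because both genes start from it and moved together. The window of Lamp1 (forward strand, chr8:13158911-13159210) is shown because Lamp1 moved with Cul4a while most other lysosomal genes had lower means in the same tumours. Capitals mark GGGCGG (the GC box) or CACGTG (the E-box core), searched on both strands, which do not overlap each other here.

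Cul4a: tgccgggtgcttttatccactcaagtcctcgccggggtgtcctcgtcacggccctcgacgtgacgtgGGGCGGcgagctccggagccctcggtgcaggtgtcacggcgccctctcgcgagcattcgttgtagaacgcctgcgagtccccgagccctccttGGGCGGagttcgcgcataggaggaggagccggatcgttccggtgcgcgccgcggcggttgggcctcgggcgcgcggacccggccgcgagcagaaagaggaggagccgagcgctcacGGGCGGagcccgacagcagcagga
Lamp1: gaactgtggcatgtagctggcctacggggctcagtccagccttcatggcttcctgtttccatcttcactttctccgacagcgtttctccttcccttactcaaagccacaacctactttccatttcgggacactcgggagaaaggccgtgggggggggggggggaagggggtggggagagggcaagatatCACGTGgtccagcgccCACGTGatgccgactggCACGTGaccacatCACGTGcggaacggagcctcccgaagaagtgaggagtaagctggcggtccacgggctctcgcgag

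The Cul4a window holds 3 GC boxes and 0 E-boxes, and the Lamp1 window holds 0 GC boxes and 4 E-boxes. GGGCGG stands in 35.9% and CACGTG in 7.17% of 32544 mouse RefSeq windows of this length. Around Cul4a, 28 of the 34 genes described next had 1 or more RefSeq windows, 47 windows in all, of which 32 (68.1%) hold GGGCGG and 4 (8.51%) hold CACGTG. Some genes gave several overlapping windows, and all 34 averaged 5 CPM or more, so these shares and those of the 32544 windows are not a like comparison. These are matches of letters, and the RNA counts do not show what binds there.

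AAV-delta-mut-p53 4 had 1558 CPM of Cul4a, AAV-delta-mut-p53 1 had 1232, AAV-delta-mut-p53 5 had 631 and AAV-Control 3 had 391. Among the low tumours, AAV-delta-mut-p53 3 had 207 CPM, AAV-Control 1 had 184, AAV-Control 2 had 115, AAV-delta-mut-p53 2 had 110 and AAV-delta-mut-p53 6 had 91.7. The values just inside and just outside the threshold were thus 391 and 207 CPM, a 1.89-fold gap. The high tumours averaged 953 ± 536 CPM (SD, n = 4) and the low ones 142 ± 50.8 CPM (SD, n = 5), a ratio of 6.73. The 2 highest levels, in AAV-delta-mut-p53 4 and 1, stood above AAV-delta-mut-p53 5 and AAV-Control 3. The threshold caps the low side and not the high side, so the 2 spreads are not compared.

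**Figure D1:**
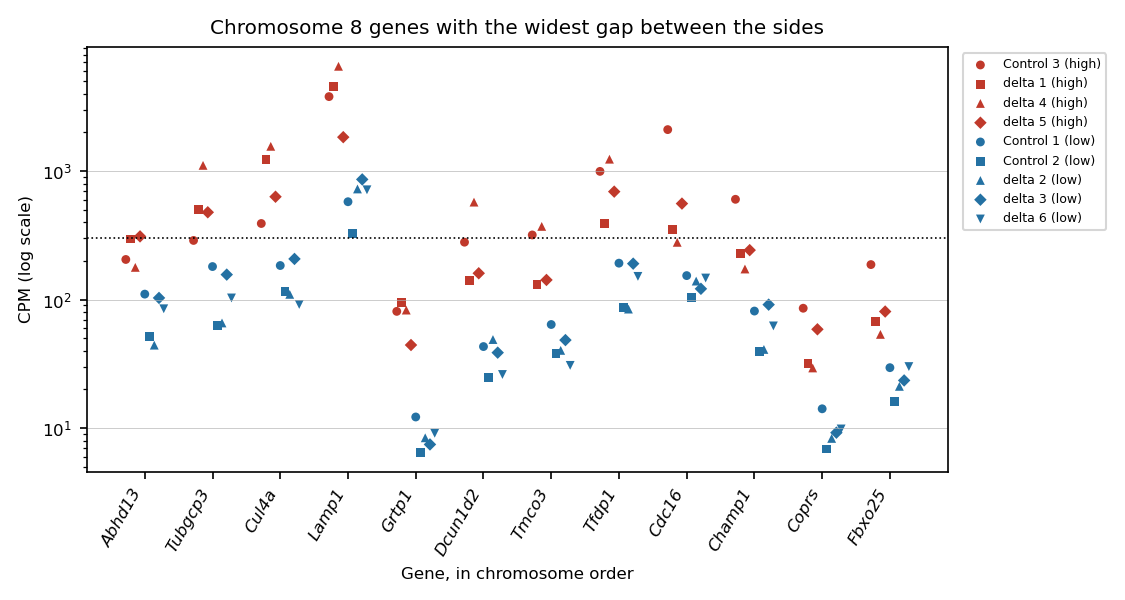
RNA level (CPM, log scale) of the 12 chromosome 8 genes with the widest gap between the lowest Cul4a-high tumour (red) and the highest Cul4a-low tumour (blue), in chromosome order, 1 point per tumour; "Control" is AAV-Control, "delta" is AAV-delta-mut-p53, and the dotted line is the 300 CPM threshold, which applies to Cul4a. No red point lies below a blue one within a gene, the widest gap is at Grtp1 (3.63-fold), and the tumour with the highest point changes from gene to gene.

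On chromosome 8, 615 protein-coding genes averaged 5 CPM or more, and 20 of them (3.25%) were higher in every high tumour than in every low tumour. All 20 lay in 1 stretch of 9.36 Mb, chr8:4613167-13975032, from Zfp958 to Tdrp, where they were 20 of 34 genes. The stretch was bounded by the first and last of the 20, so that 0 of the other 581 genes of the chromosome were follows from its bounds. Without AAV-delta-mut-p53 6, the 20 became 31. Off chromosome 8, 50 of 11105 genes (0.45%) were higher in every high tumour and 54 (0.486%) were lower in every one. The next highest shares of higher genes were 1.57% on chromosome 1, 1.35% on chromosome 9 and 1.29% on chromosome 17. Genes beside Cul4a are close to the gene that chose the sides, so no difference between the sides was tested for them.

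**Figure D2:**
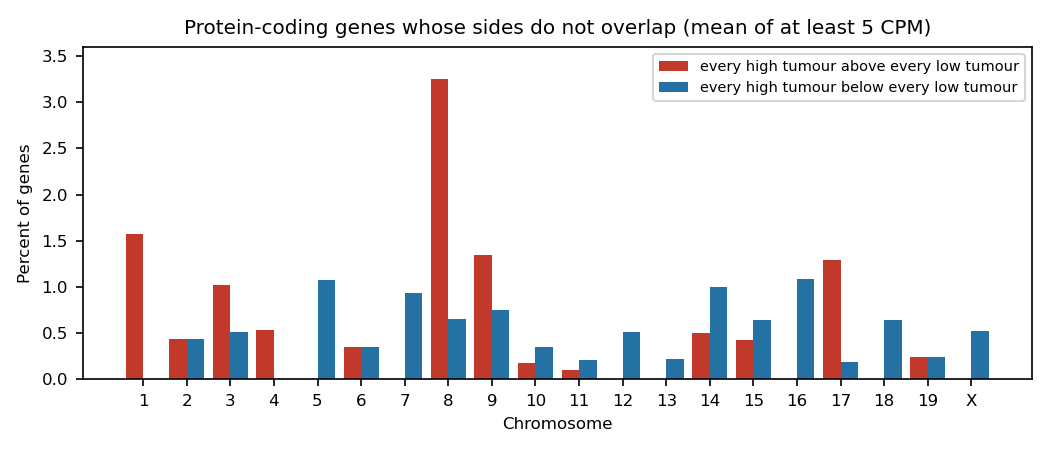
Percent of protein-coding genes per chromosome (averaging 5 CPM or more) for which all 4 Cul4a-high tumours were above all 5 Cul4a-low tumours (red) or below them (blue). Chromosome 8 has the highest red bar, 3.25%, and chromosome 1 follows with 1.57%.

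Genes of ubiquitin ligases other than Cul4a lay in the stretch too. Dcun1d2, one of the proteins that help to load Nedd8 onto cullins, was 280, 140, 573 and 160 CPM in AAV-Control 3 and AAV-delta-mut-p53 1, 4 and 5. In the low tumours Dcun1d2 was 24.7 to 48.9 CPM, so the sides were 2.87-fold apart at their closest. Cdc16, a subunit of the anaphase-promoting complex, another ubiquitin ligase, was 2102, 351, 279 and 559 CPM in the high tumours in the same order, and 104 to 154 CPM in the low tumours. The lowest high value of Cdc16 was 1.81-fold above the highest low one, and AAV-Control 3 stood far above the other 3.

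Tfdp1, which pairs with E2F proteins on the promoters of S phase genes, was 995, 391, 1237 and 692 CPM in AAV-Control 3 and AAV-delta-mut-p53 1, 4 and 5. The low tumours had 84.4 to 192.1 CPM, 2.04-fold below the lowest high tumour. Champ1, a protein of chromosome alignment in mitosis, averaged 312 ± 197 CPM (SD, n = 4) against 63.1 ± 23.4 CPM (SD, n = 5). Tubgcp3, part of the gamma-tubulin complex that starts microtubules, averaged 594 ± 355 CPM against 114 ± 53.3 CPM in the same tumours.

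Lamp1, an abundant glycoprotein of the lysosomal membrane, was 3797, 4580, 6535 and 1836 CPM in AAV-Control 3 and AAV-delta-mut-p53 1, 4 and 5. It was 578, 325, 726, 861 and 715 CPM in AAV-Control 1 and 2 and AAV-delta-mut-p53 2, 3 and 6. The sides were 2.13-fold apart, and the means differed 6.53-fold. Grtp1, a TBC-domain gene, was 81.0, 94.9, 82.9 and 44.3 CPM in AAV-Control 3 and AAV-delta-mut-p53 1, 4 and 5, and 6.46 to 12.2 CPM in the low tumours. Grtp1 and Lamp1 run towards each other and overlap by 3317 bases at their 3′ ends. The libraries were strand-specific, but no source used here states the strand setting of the counting, so reads of Lamp1 and Grtp1 cannot be told apart with certainty. The same holds for Naxd and Cars2, which overlap by 984 bases, and for Col4a1 and Col4a2, which overlap by 22 bases.

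Of the growth and matrix genes in the stretch, Gas6, the ligand of the TAM receptor kinases, had no overlap between the sides: 1935, 387, 595 and 1258 CPM in AAV-Control 3 and AAV-delta-mut-p53 1, 4 and 5 against 147 to 335 CPM. Irs2, an adaptor of the insulin receptor, did overlap, because AAV-Control 1 (174 CPM) was above AAV-delta-mut-p53 4 (122 CPM). Col4a1, a basement membrane collagen, was 11338 CPM in AAV-delta-mut-p53 5 and 1903 to 2452 CPM in the other 3 high tumours. The low tumours AAV-Control 1 and 2 had 3923 and 2756 CPM of Col4a1, above those 3 high tumours. AAV-delta-mut-p53 2, 3 and 6 had 369 to 636 CPM.

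A set of 37 genes around Cul4a, listed by position with earlier results of these data known, shows the same range. Of its 29 members that averaged 5 CPM or more, 15 had no overlap between the sides and 28 had a higher mean in the high tumours. The exception was Tnfsf13b, a B cell growth factor, which was highest in AAV-delta-mut-p53 2 (24.1 CPM). Its 8 other members, Myo16, Sox1, Tex29, F7, F10, Spaca7, Adprhl1 and Atp4b, were below 5 CPM. Of 27 such genes among 30 landmarks elsewhere on chromosome 8, 0 were higher in every high tumour and 9 had a higher mean.

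The extent and peak of the raised stretch differed among the high tumours. Levels were set against the median of the 5 low tumours, and the stretches below were bounded after the values were seen. In AAV-delta-mut-p53 4 the 7 genes from Pcid2 to Tfdp1 were 8.16 to 14.8 times that median, with Dcun1d2 the highest and Cul4a at 13.5 times. The 3 genes before them, from Tubgcp3 to Mcf2l, were 9.22 to 11.2 times, and the 8 genes after them, from Gas6 to Tdrp, were 1.17 to 3.19 times. The medians of the 3 blocks, in chromosome order, were 10.8, 9.86 and 2.44 times.

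In AAV-Control 3 the 8 genes from Gas6 to Tdrp were 7.37 to 15.7 times the low median, with a median of 9.29 times. The 7 genes from Pcid2 to Tfdp1 overlapped them, at 2.40 times (Pcid2) to 9.63 times (Grtp1), with a median of 6.56 times and Cul4a at 3.39 times. Arglu1, an RNA-processing coactivator some 4 Mb before Cul4a, was 3031 CPM in AAV-Control 3 (18.7 times) against 264 to 752 CPM in the other high tumours and 71.8 to 250.7 CPM in the low ones. Between them, the 6 genes from Rab20 to Arhgef7 were 0.54 to 1.34 times in AAV-Control 3. The raised genes of AAV-Control 3 were thus not 1 unbroken block.

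AAV-delta-mut-p53 1 had 68 of 82 genes above 2 times the low median in the first part of the chromosome, against 37 to 49 in the other high tumours. The 6 genes from Rab20 to Arhgef7 had a median of 6.04 times in AAV-delta-mut-p53 1, Cul4a was 10.7 times and Grtp1 11.3 times, and the 8 genes from Gas6 to Tdrp were 1.29 to 3.66 times. A second group of 14 genes, from Alg11 to Ap3m2, had a median of 5.47 times in AAV-delta-mut-p53 1, and 0.63 to 1.35 times in the other 3 high tumours. In it Ikbkb, a kinase that activates NF-kappaB, was 583 CPM in AAV-delta-mut-p53 1 and 39.2 to 111.3 CPM in the other 8 tumours.

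AAV-delta-mut-p53 5, whose title pairs it with AAV-delta-mut-p53 4, had its peak elsewhere. Col4a1 was 17.8 times and Col4a2 14.7 times the low median, and Cul4a was 5.47 times. The 3 genes from Tubgcp3 to Mcf2l, which were all above 9 times in AAV-delta-mut-p53 4, had a median of 1.88 times in AAV-delta-mut-p53 5. From Cln8 to Agpat5, just past the stretch, AAV-delta-mut-p53 5 fell to a median of 0.53 times.

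AAV-delta-mut-p53 6, the tumour with the least Cul4a, had a raised stretch that ended before Cul4a. All 19 genes from Insr to Ccl25 (chr8:3122061-4360020) were 2.46 to 15.6 times the low median in it, with a median of 5.21 times. These 19 genes were raised in the high tumours too, with medians of 2.34, 2.58, 1.70 and 3.09 times in AAV-Control 3 and AAV-delta-mut-p53 1, 4 and 5. In the other low tumours the medians were 0.55 to 1.02 times. Insr, the insulin receptor, was 1053 CPM in AAV-delta-mut-p53 6 against 91.6 to 374.1 CPM in the other 8 tumours. In AAV-delta-mut-p53 6 the median from Zfp958 to Abhd13 was 0.96 times and the 7 genes from Pcid2 to Tfdp1 were 0.68 to 1.08 times. No DNA copy number was measured here, and what sets these levels was not tested.

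**Figure D3:**
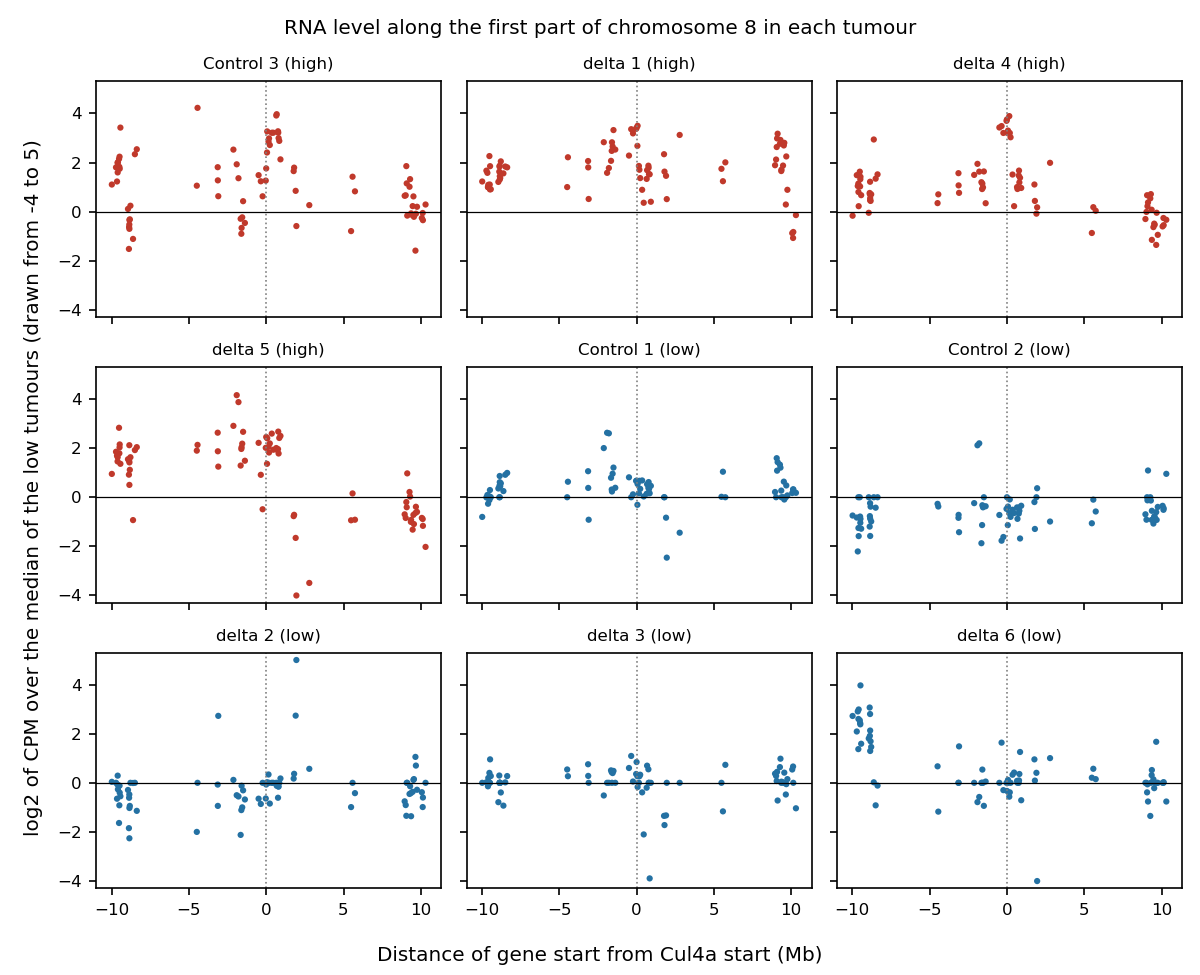
Level of each of 82 protein-coding genes along the first part of chromosome 8 in each tumour, as log2 of its CPM over the median of the 5 Cul4a-low tumours (values beyond -4 or 5 are drawn at those limits), against the distance of its start from the Cul4a start in Mb; "Control" is AAV-Control and "delta" is AAV-delta-mut-p53. The 4 Cul4a-high tumours (red) rise around 0 with different peaks, and in the low tumour delta 6 the 19 genes at the far left are raised and Cul4a is not.

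Summed, the 29 genes from Tnfsf13b to Erich1 took 1.73%, 1.63%, 1.99% and 2.45% of all counts in AAV-Control 3 and AAV-delta-mut-p53 1, 4 and 5. In the low tumours the same genes took 0.87% in AAV-Control 1, 0.55% in AAV-Control 2 and 0.28%, 0.38% and 0.34% in AAV-delta-mut-p53 2, 3 and 6. Without the 2 Col4a genes the shares were 0.897% to 1.65% in the high tumours, with AAV-delta-mut-p53 4 the highest, and 0.143% to 0.301% in the low ones. Past 20 Mb, the bins of 10 Mb had medians of high minus low from -0.42 to 0.23 on the log2 (CPM + 1) scale, against 1.88 for the bin from 10 to 20 Mb. Of the 615 genes, 4 (0.65%) were lower in every high tumour, near the share of 0.486% on other chromosomes. All 4 were past 71 Mb: B3gnt3, Cmip, 6430548M08Rik and Zfpm1. Cmip, the one furthest apart, was 12.3 to 22.2 CPM in the high and 26.2 to 86.3 CPM in the low tumours.

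Over the 9 tumours, the genes with a pattern most like that of Cul4a (Pearson's r of log2 (CPM + 1), 11719 genes compared) were Pcid2 and Tubgcp3, its neighbours, and then Prdm10 and Pinx1 on other chromosomes. The 5 highest on chromosome 8 were Pcid2 (r = 0.98), Tubgcp3 (r = 0.96), Grtp1 (r = 0.91), Lamp1 (r = 0.91) and Dcun1d2 (r = 0.88). The 5 highest off chromosome 8 were Prdm10 (r = 0.94), Pinx1 (r = 0.92), Mars2 (r = 0.91), Cox7a2l (r = 0.90) and Lipt1 (r = 0.89). Prdm10, a zinc finger gene on chromosome 9, had a much narrower range: 25.3 to 30.4 CPM in the high and 19.8 to 23.4 CPM in the low tumours. These are the highest of many values over 9 points that share their libraries and are a description.

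The AAV groups were on both sides. The 3 AAV-Control tumours averaged 230 ± 143 CPM of Cul4a (SD, n = 3), the 6 AAV-delta-mut-p53 tumours averaged 638 ± 626 CPM (SD, n = 6), and edgeR's quasi-likelihood test gave a log2 fold change of 1.44 (SE 0.94, Benjamini-Hochberg adjusted p = 0.71). Of the 34 genes from Zfp958 to Tdrp, 0 passed an adjusted p of 0.05 between the AAV groups, and 3 had an unadjusted p under 0.05, Tnfsf13b, Naxd and Cars2. Over all 19606 genes 0 were called (0.0%) and 1387 (7.07%) had an unadjusted p under 0.05. Within the AAV-delta-mut-p53 tumours alone, 29 of the 34 genes were higher in all 3 high than in all 3 low tumours, against 799 of 11105 genes (7.19%) on other chromosomes. The stretch was bounded by genes that separate all 9 tumours, and the 20 such genes in it must also separate these 6, so the count is a description.

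Off chromosome 8, edgeR's quasi-likelihood test over all genes called 0 of 18528 genes (0.0%) between 4 high and 5 low tumours at an adjusted p of 0.05. An unadjusted p under 0.05 was reached by 995 genes (5.37%), of which 271 were higher in the high tumours and 724 lower. Limma voom with sample weights also called 0, and at that p had 262 higher and 267 lower, so the excess of lower genes was not seen with it. Left out in turn, AAV-Control 1, 2 and 3 gave 1023, 1037 and 454 lower genes, against 349, 330 and 260 higher. AAV-delta-mut-p53 1 to 6 left out in turn gave 419, 426, 919, 523, 495 and 725 lower, against 222 to 298 higher. With AAV-delta-mut-p53 4 and 5 summed, 445 were lower and 230 higher. DESeq2 called 53 genes (0.286%), 10 higher and 43 lower. In simulated data of the same design, 50 genes were changed at each log2 size of 1, 2, 3 and 4. EdgeR called 0, 8, 22 and 40 of them, and DESeq2 3, 30, 44 and 50. A gene that edgeR did not call may thus still differ between the sides. Of 18939 unchanged genes edgeR called 3 and DESeq2 56, so an adjusted p from DESeq2 is given below as a value and not as a call. The 56 came beside calls of changed genes, so they do not tell how many of the 53 here are false. The median log2 fold change off chromosome 8 was -0.04.

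Pdk4, which restrains pyruvate dehydrogenase and so the use of glucose in mitochondria, had the smallest p. It was 9.28, 8.05, 5.17 and 11.4 CPM in AAV-Control 3 and AAV-delta-mut-p53 1, 4 and 5, and 35.5, 85.5, 175, 73.7 and 199 CPM in AAV-Control 1 and 2 and AAV-delta-mut-p53 2, 3 and 6. The sides were 3.12-fold apart at their closest, with a log2 fold change of -3.79 (SE 0.55, edgeR adjusted p = 0.26, DESeq2 adjusted p = 5.57e-09). It missed edgeR's threshold with all tumours and passed it without AAV-Control 1 (edgeR adjusted p = 0.046). With each of the other 8 left out in turn the edgeR adjusted p was 0.39 (without AAV-delta-mut-p53 5) to 0.75 (without AAV-Control 3).

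The next lower genes differed in what they do. Kcnh2, a potassium channel, was at most 0.33 CPM in the high and 0.78 to 4.61 CPM in the low tumours. Flnc, the filamin of muscle, was 3.23 to 6.86 CPM against 14.4 to 229 CPM, with its highest value in AAV-delta-mut-p53 2, the tumour with most skeletal muscle RNA, and the part of muscle in it was not tested. Without that tumour the low values of Flnc were 14.4 to 42.6 CPM, still above all high ones. Tgfbr2, a receptor of TGF-beta, was 76.2 to 112.5 CPM against 157 to 523 CPM, and Akap12, a scaffold of protein kinase A, was 32.8 to 54.8 CPM against 59.8 to 626.8 CPM.

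Csn3, a milk casein, overlapped between the sides: 6.24 to 51.2 CPM in the high tumours against 48.5 and 107 CPM in AAV-Control 1 and AAV-delta-mut-p53 2 and 887 to 1458 CPM in the other 3 low tumours. Fam43a, Cthrc1 and Meis2 were also among the 10 lower genes with the smallest p, and their sides did not overlap: Fam43a was 2.91 to 4.92 CPM in the high and 7.82 to 29.3 CPM in the low tumours, and Cthrc1 was 2.64 to 4.26 CPM against 5.57 to 39.5 CPM.

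Among the 10 higher genes with the smallest p, 5 did not overlap between the sides, Mab21l2, Chil1, Hhipl2, Cldn2 and Gpr179. Chil1, a secreted chitinase-like glycoprotein, was 153, 61.1, 86.5 and 81.2 CPM in AAV-Control 3 and AAV-delta-mut-p53 1, 4 and 5, and 2.97 to 31.8 CPM in the low tumours. Its log2 fold change was 2.74 (SE 0.69, edgeR adjusted p = 0.85, DESeq2 adjusted p = 0.031). Cldn2, a claudin that forms tight junction pores, was 12.9 CPM in AAV-Control 3 and 1.97 to 6.58 CPM in the other high tumours, and 0.73 to 1.65 CPM in the low ones. The other 5, Mtus2, Gpa33, Erich3, Lrp8os2 and Klk7, overlapped and were high in 1 or 2 tumours: Erich3 was 23.9 CPM in AAV-delta-mut-p53 1 and at most 1.72 CPM elsewhere.

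**Figure D4:**
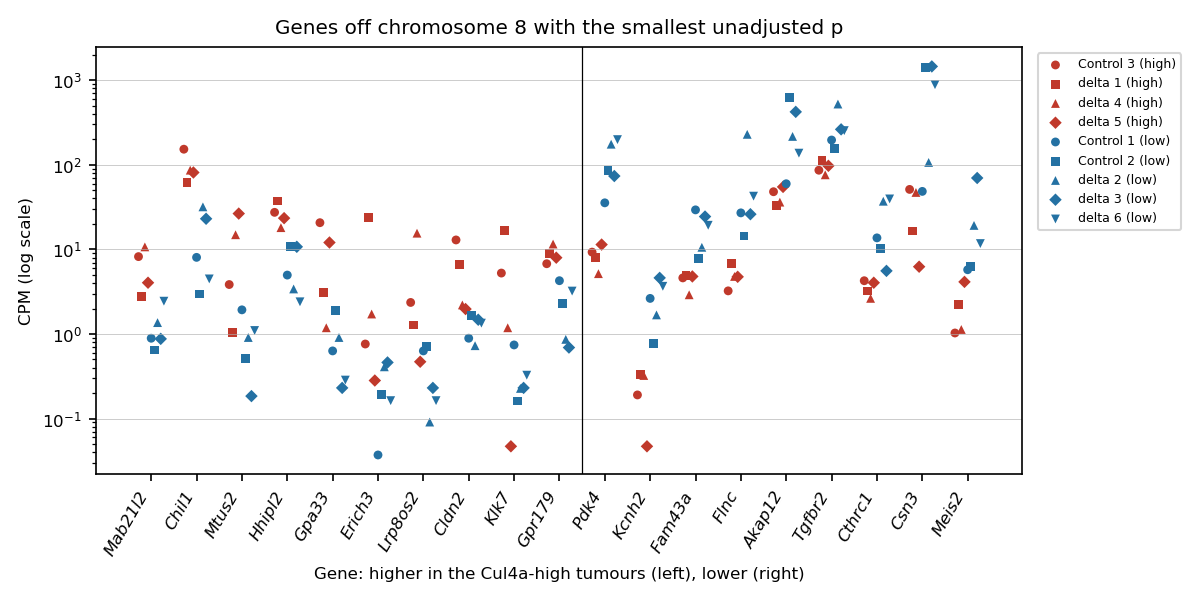
RNA level (CPM, log scale) in each tumour of the 10 higher (left) and 9 of the 10 lower (right) genes off chromosome 8 with the smallest unadjusted p in edgeR's test, for genes averaging 1 CPM or more; red points are Cul4a-high and blue points Cul4a-low tumours, "Control" is AAV-Control and "delta" is AAV-delta-mut-p53. Pdk4 separates the sides most widely among the lower genes (5.17 to 11.4 against 35.5 to 199 CPM), and several higher genes are high in 1 tumour.

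The partners of Cul4a did not pass the test. Cul4b, the paralogue on the X chromosome, averaged 114 ± 29.9 CPM (SD, n = 4) in the high and 102 ± 41.2 CPM (SD, n = 5) in the low tumours (log2 fold change 0.15, SE 0.35). Ddb1, the adaptor, was 708 to 869 CPM in the high and 362 to 944 CPM in the low tumours (log2 fold change 0.13, SE 0.31). Rbx1, the RING subunit, was 58.0 to 86.7 CPM against 47.8 to 110.2 CPM (log2 fold change -0.15, SE 0.29). The edgeR adjusted p of each of the 3 was 0.99. With all tumours Cul4b and Ddb1 were slightly higher and Rbx1 slightly lower, but the sign of Cul4b turned with limma voom (-0.032) and that of Ddb1 without AAV-delta-mut-p53 2 (-0.034).

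Of 30 tested CRL4 genes off chromosome 8 (core, receptors and Nedd8 enzymes), 0 passed edgeR's test, 17 had a higher mean and 13 a lower one, with a median log2 fold change of 0.14. Over all 18528 genes off chromosome 8, 46.9% had a higher mean in the high tumours, and the counts below are to be read against that share. Without AAV-delta-mut-p53 2 the CRL4 list had 14 higher and 16 lower, with a median of -0.028. Crbn, the receptor bound by thalidomide, had the smallest p in the list, with 1 tumour far above the rest: AAV-delta-mut-p53 4 had 379 CPM, AAV-delta-mut-p53 5 had 91.8 CPM and the other 7 had 38.4 to 66.4 CPM. Of 23 RNAs whose proteins are known CRL4 substrates, 0 passed edgeR's test, 7 were higher and 16 lower in mean. Meis2, a homeobox gene of that list, was 1.03 to 4.13 CPM in the high and 5.75 to 69.9 CPM in the low tumours (edgeR adjusted p = 0.85, DESeq2 adjusted p = 0.0048). The COP9 signalosome, which takes Nedd8 off cullins, had 7 of 10 genes higher in mean and a median of 0.05, which turned to 4 of 10 and -0.041 without AAV-delta-mut-p53 2.

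Of 29 mitotic genes off chromosome 8, 28 had a higher mean in the high tumours, 0 passed edgeR's test, and the median log2 fold change was 0.37, against -0.04 for all genes off chromosome 8. Cenpf, a kinetochore protein, was 584, 412, 309 and 264 CPM in the high tumours and 73.7 to 408 CPM in the low ones, so the sides overlapped. Without AAV-delta-mut-p53 2 the count was 22 of 29 and the median 0.14. Of 28 replication genes, among them targets of E2F, 13 had a higher mean and the median was -0.07. Without AAV-delta-mut-p53 2 it was 4 of 28, with a median of -0.22. Tfdp1 was 5.87-fold higher in mean, and its part in the levels of the replication genes was not tested. Of 26 ribosomal protein genes, 25 had a higher mean (median 0.36), and 0 passed edgeR's test.

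Lysosomal genes off chromosome 8 were mostly lower in mean. Of 25 tested off chromosome 8, 20 had a lower mean in the high tumours (median -0.56), 6 had an unadjusted p under 0.05, all lower, and 0 passed edgeR's test. Hexa, a lysosomal hexosaminidase, was 33.3 to 71.5 CPM in the high and 65.6 to 202.9 CPM in the low tumours. Tfeb, the transcription factor of lysosomal genes, had a log2 fold change of -2.10 (SE 0.92, edgeR adjusted p = 0.85). Macrophages are rich in lysosomes, and their part in these levels was not tested. The 14 macrophage genes summed to 568 to 1138 CPM in the high tumours and 4127 CPM in AAV-delta-mut-p53 2. The other low tumours had 761 to 1891 CPM, which overlaps the high tumours. Without AAV-delta-mut-p53 2 the lysosomal median was -0.48 and 4 genes had an unadjusted p under 0.05.

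Luminal mammary genes also had lower means, 12 of 16 with a median of -0.83, 6 at an unadjusted p under 0.05 and 0 called by edgeR. Those 6 were Gata3, Foxa1, Esr1, Pgr, Prlr and Areg, which are the regulators, hormone receptors and hormone-induced growth factor of the list. Gata3, a regulator of luminal identity, was 0.68, 11.4, 11.7 and 2.30 CPM in AAV-Control 3 and AAV-delta-mut-p53 1, 4 and 5, and 98.1, 24.5, 11.2, 19.2 and 109 CPM in the low tumours. The sides overlap at AAV-delta-mut-p53 2, and without it the luminal median was -1.11. DESeq2 with all tumours gave Gata3 an adjusted p of 0.073. DESeq2 without AAV-delta-mut-p53 2, a fit added after seeing the data, gave Gata3 and Areg adjusted p of 0.029 and 0.039. In the basal list 11 of 15 genes were higher in mean (median 0.22, 0 called by edgeR), and 9 of 15 without AAV-delta-mut-p53 2 (median 0.085). Krt5, a basal keratin, was 53.3 to 378 CPM in the high and 1.66 to 238 CPM in the low tumours. The basal marker Krt14 averaged 168 CPM in the high and 180 CPM in the low tumours, with its highest value, 859 CPM, in AAV-delta-mut-p53 6. Trp63, another basal marker, averaged 217 against 203 CPM and was highest in AAV-Control 2, at 581 CPM. The summed luminal list ran from 1713 to 4790 CPM in the high and from 506 to 5545 CPM in the low tumours.

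Interferon, antigen presentation and stromal genes were mostly lower in mean in the high tumours, with 0 called by edgeR in each list. Of 28 interferon-stimulated genes 27 were lower in mean (median -0.99), and all 15 antigen presentation genes were (median -0.56). Parp14, an interferon-induced gene, was 29.5 to 88.7 CPM in the high tumours, 32.0 and 51.9 CPM in AAV-Control 2 and 1, and 190 to 241 CPM in AAV-delta-mut-p53 2, 3 and 6. Of 12 genes of epithelial-mesenchymal transition 11 were lower in mean (median -1.03, and -0.44 without AAV-delta-mut-p53 2). All 12 fibroblast genes were lower in mean (median -1.74, 7 at an unadjusted p under 0.05), and without AAV-delta-mut-p53 2 it was 11 of 12 (median -1.18, 1 at that p). For 16 skeletal muscle genes the median was -5.83 with AAV-delta-mut-p53 2 and -0.20 without it, and the 15 genes with an unadjusted p under 0.05 became 0. The sign of 2 lymphocyte medians turned without that tumour, from -0.84 to 0.70 for B and plasma cell genes and from -0.32 to 0.31 for T and NK cell genes.

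The other lists also had 0 genes called by edgeR. Of 30 p53 target genes 11 were higher in mean (median -0.16), of 22 nucleotide excision repair genes 17 were (0.19), and of 17 other cullins and their adaptors 12 were (0.16). Without AAV-delta-mut-p53 2 these medians were closer to 0, at -0.095, 0.096 and 0.081. Of 22 glycolysis and hypoxia genes 3 were higher in mean (-0.29), and of 22 oxidative phosphorylation genes 8 were (-0.12). Car9, a carbonic anhydrase induced by hypoxia, had 2 raised values, 12.7 CPM for AAV-Control 3 and 30.8 CPM for AAV-delta-mut-p53 4, and was 2.30 to 6.63 CPM in the other 7 tumours. Of 15 abundant RNAs and RNA quality genes 11 were higher in mean (0.16), and they summed to 112822 to 153002 CPM in the high and 63461 to 138394 CPM in the low tumours. Without AAV-delta-mut-p53 2 it was 14 of 15, with a median of 0.40 and 2 at an unadjusted p under 0.05, both higher.

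**Figure D5:**
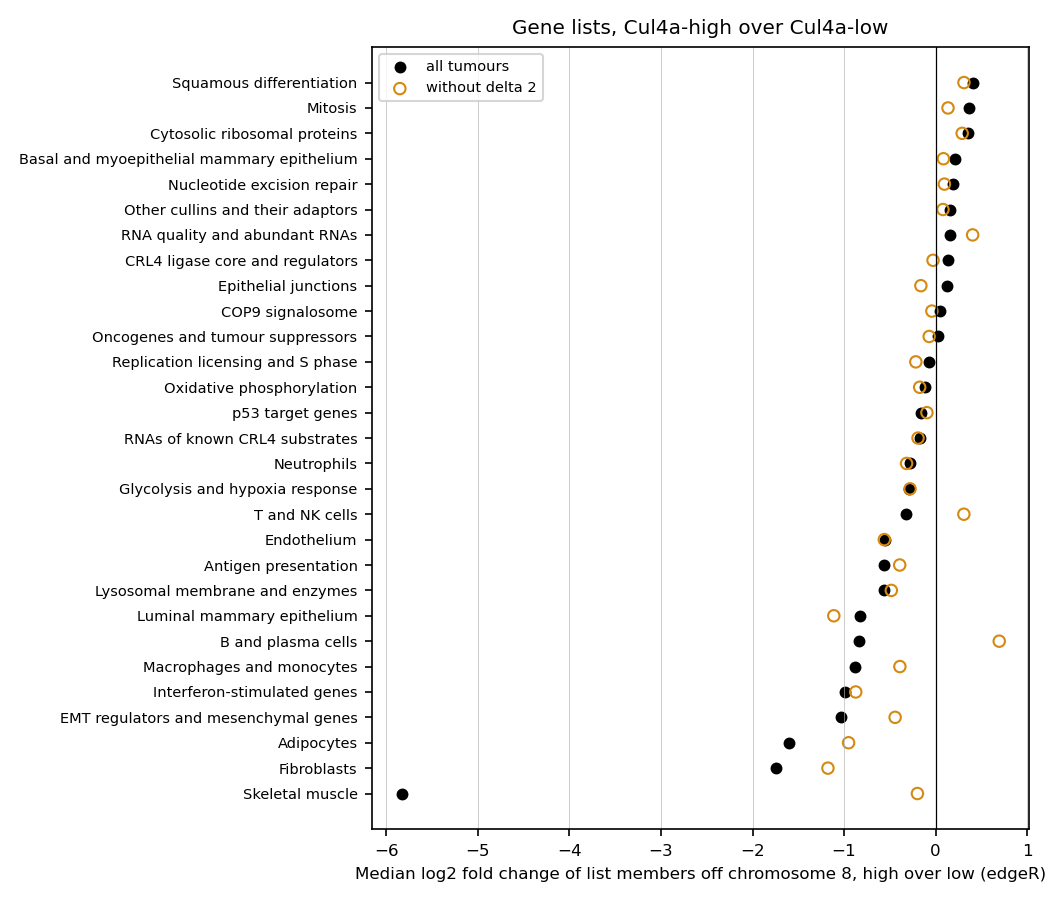
Median log2 fold change, Cul4a-high over Cul4a-low, of the tested members of each gene list off chromosome 8, with all 9 tumours (black) and without AAV-delta-mut-p53 2 (open, "delta 2"). The skeletal muscle median moves from -5.83 to -0.20 without that tumour, the mitosis median from 0.37 to 0.14, and the lysosomal median from -0.56 to -0.48.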

How the data were processed

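RNA of 9 tumours was sequenced. The authors deposited raw counts of reads for 49585 genes, which were used as they stood, and per the submitters' processing notes STAR 2.6.0b, DESeq2 and GRCm38 were used, with no role given. No source used here names the counting program, its strand setting or its annotation. Positions came from GENCODE mouse release 21 (GRCm38), which may differ from the authors' release. Symbols were found for 49326 genes. CPM are counts over the column total, without further scaling.

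Tests used edgeR 4.0.16 in R 4.3.3 (quasi-likelihood, TMM factors, filterByExpr with a minimum count of 10, 19606 genes, 18528 of them off chromosome 8), 2-sided and adjusted by the Benjamini-Hochberg method over all genes, with a threshold of 0.05. Genes whose sides do not overlap were counted among protein-coding genes averaging 5 CPM or more. Log2 levels used a pseudocount of 1 CPM. DESeq2 1.42.0 and limma 3.58.1 were alternatives, with other scalings, filters, an AAV covariate, AAV-delta-mut-p53 tumours alone, AAV-delta-mut-p53 4 and 5 summed, and each tumour left out in turn. The fits were tested on simulated data.

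Genes were named by rule: on chromosome 8 the 12 with the widest gap, off it the 10 with the smallest p in each direction averaging 1 CPM or more, and 2 per list; 1 of the lower genes is not reported here. Other named genes were chosen after their values were seen. The members and lists were chosen with earlier results of these data known.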

Additional observations from a re-analysis of the deposited data

Results flagged for a closer look

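Among 35 genes checked in each side, 9 of 70 groups held a tumour far from the rest by Dixon's test. Its rate of about 1 in 20 is for independent, normally distributed values. These genes were chosen from the same data and share their tumours, so 9 of 70 is not to be read against that rate. On chromosome 8, Champ1 was 603.1 CPM and Cdc16 was 2102 CPM in AAV-Control 3, against at most 242.6 and 558.5 CPM in the other Cul4a-high tumours. Of the higher genes off chromosome 8, Erich3 was 23.9 CPM in AAV-delta-mut-p53 1 and Lrp8os2 was 15.55 CPM in AAV-delta-mut-p53 4, against at most 1.72 and 2.36 CPM in the other high tumours. Klk7 was 0.742 CPM in AAV-Control 1, above the other low tumours (at most 0.33 CPM). Fam43a was lowest in AAV-delta-mut-p53 4, at 2.906 CPM against 4.60 to 4.92 CPM in the other high tumours. In AAV-delta-mut-p53 2, Flnc was 229.4 CPM and Tgfbr2 was 523.4 CPM, against at most 42.6 and 262.7 CPM in the other low tumours. Meis2 was 69.89 CPM in AAV-delta-mut-p53 3, against at most 19.2 CPM in the other low tumours. For 47 named genes an interaction of side with AAV group was fitted with edgeR. It rests on 1 AAV-Control tumour on the high side, so it cannot tell whether the sides differed alike in both AAV groups.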

How the results depend on the processing

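Off chromosome 8 the number of genes called was 0 with edgeR under every scaling and filter tried, 53 with DESeq2 and 37 with DESeq2 without AAV-delta-mut-p53 2 (added after seeing the data), and leaving out 1 tumour gave 0 to 1, the 1 being Pdk4 without AAV-Control 1. Genes at an unadjusted p under 0.05 numbered 529 with limma voom and 2089 with no filter on low counts. On chromosome 8, the genes higher in every high tumour numbered 20 to 31 with 1 tumour left out, 31 being without AAV-delta-mut-p53 6, and 23 with AAV-delta-mut-p53 4 and 5 summed. The median difference of the bin from 10 to 20 Mb was 1.48 with genes of at least 1 CPM. The sign turned for Cul4b with limma voom (-0.032), for Ddb1 without AAV-delta-mut-p53 2 (-0.034, and -0.046 with DESeq2; -0.034 to 0.23 over all tumours left out), and for Myh4, a muscle myosin, without that tumour (0.25, and 0.24 with DESeq2; -6.66 to 0.25 over all tumours left out); no other of the 47 genes run through these alternatives changed sign. No paired analysis was possible because the sides are different tumours, and the pair that the titles may mark, AAV-delta-mut-p53 4 and 5, lies within the high side. Precision is limited by 4 against 5 tumours, with 1 control among the high, and by the threshold on a measured gene; depth, at 18581545 counts or more, limits only genes of few counts.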

Other observations

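Single tumours carried very high levels of other genes, off chromosome 8, on either side (chosen after their values were seen). Met, a growth factor receptor kinase, was 9184 CPM in AAV-delta-mut-p53 3 and 47.0 to 510.1 CPM in the other 8 tumours. Atp5c1, a subunit of mitochondrial ATP synthase, was 3243 CPM in AAV-delta-mut-p53 6 and 181 to 438 CPM elsewhere. In AAV-delta-mut-p53 4, Keap1, the receptor of a Cul3 ligase, was 137 CPM against 23.6 to 38.5 CPM elsewhere, and the ribosomal protein gene Rps25 was 1644 CPM against 259 to 493 CPM. Keap1 and Rps25 both lie on chromosome 9. In AAV-Control 3, Uba3, part of the enzyme that activates Nedd8, was 599 CPM against 80.0 to 230.7 CPM elsewhere.

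Of the 50 genes off chromosome 8 that were higher in every high tumour, most gaps were narrow. Ncl, the nucleolar protein nucleolin, was 381 to 625 CPM in the high and 210 to 353 CPM in the low tumours. Cox7a2l, a protein of respiratory supercomplexes, was 299 to 357 CPM against 195 to 238 CPM. Creb1, a transcription factor that answers to cyclic AMP, was 190 to 245 CPM against 116 to 174 CPM. Psmd1, a proteasome subunit, was 219 to 236 CPM against 111 to 199 CPM.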
